A study of Mus musculus with 47 samples.

Results

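Titin (Ttn), nebulin (Neb), the 3 myomesins (Myom1, Myom2, Myom3) and the 3 myosin-binding proteins C and H (Mybpc1, Mybpc2, Mybph) are the members of the group described here, 8 of the 45706 genes in the deposited tables. They were taken by gene symbol as a group of related sarcomere genes, with earlier results of these data known, and the transcripts of each gene were summed. RNA-seq was performed on C2C12, an immortalized mouse myoblast line that exits the cell cycle and fuses into myotubes when serum is withdrawn. The iMyoD1 line carries endogenous MyoD1 plus a dox-inducible Halo-MyoD1 allele, MyoD1 being the transcription factor that commits cells to the muscle lineage, whereas the iCdh23 and iMcam lines carry an inducible adhesion gene, Cdh23 or Mcam, and no MyoD1 transgene. Each line was given vehicle (no dox) or doxycycline (+dox). The study asked how MyoD1 above its endogenous level, or a single adhesion gene, alters differentiation.

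The 16 groups were iMyoD1 in growth medium with 24 h of vehicle or dox (0 h of differentiation), iMyoD1 at 24, 48 and 120 h of serum withdrawal, 2 size fractions of iMyoD1 at 120 h, and iCdh23 and iMcam at 48 h, each with no dox and +dox. Dox or vehicle was given for the whole of serum withdrawal. The fractions were made by trypsin treatment and passage over a 40 µm strainer, the flow-through being named myoblast-enriched and the retained material myotube-enriched. Each group held 3 biological replicates except myoblast-enriched +dox, which held 2 (replicates 2 and 3), 47 libraries in all. Each transgene is driven by a dox-responsive promoter. In the polyclonal iMyoD1 population the paper found Halo-MyoD1 in only part of the nuclei with dox. The +dox whole-culture values of iMyoD1 therefore mix induced and uninduced cells. No induced share of cells was given for iCdh23 and iMcam.

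The sarcomere is the contractile unit of striated muscle, in which myosin thick filaments slide past actin thin filaments. Titin is a giant elastic protein that reaches from the Z-disc, where thin filaments are anchored, to the M-band, where thick filaments are cross-linked, and nebulin runs along the thin filament and helps to set its length in skeletal muscle. Myomesin, encoded by Myom1, Myom2 and Myom3, cross-links thick filaments and the end of titin at the M-band. Myosin-binding protein C sits on the thick filament in a slow-fibre form (Mybpc1) and a fast-fibre form (Mybpc2) and modulates cross-bridge cycling, and Mybph encodes a shorter relative of it. All are markers of assembled sarcomeres and are low in proliferating myoblasts.

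All coordinates are on mouse build GRCm38. Ttn lies on the minus strand of chromosome 2 from 76703980 to 76982547, with a longest annotated transcript of 106824 bases in 347 exons. Neb lies on the same chromosome and strand from 52136647 to 52378474, with a longest transcript of 22489 bases in 157 exons. Myom1 is on chromosome 17 (71002633 to 71126856, plus strand), Myom2 on chromosome 8 (15057653 to 15133541, plus strand) and Myom3 on chromosome 4 (135759715 to 135815564, plus strand), with longest transcripts of 5648, 5075 and 5575 bases. Mybpc1 is on chromosome 10 (88518279 to 88605152, minus strand), Mybpc2 on chromosome 7 (44501699 to 44524656, minus strand) and Mybph on chromosome 1 (134193448 to 134201232, plus strand), with longest transcripts of 3922, 3611 and 2320 bases. Overlaps with 2 expressed genes on the opposite strand were found. Myom1 overlaps Myl12a, a myosin regulatory light chain gene with up to 42970 counts in a library, and Mybph overlaps Adora1, an adenosine receptor gene with up to 1274 counts. The strand setting of the counting was not given in the sources used here, so reads of the overlapping parts may be shared. The Myl12a overlap ends at 71002878, before the start of Myom1-203 at 71019560, the transcript that took most Myom1 counts.

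MyoD1 and its relatives bind DNA at the E-box, CANNTG, and the RefSeq promoter windows (250 bases before to 50 after the gene start, GRCm38.p6) of 6 of the 8 members held at least 1 such match, as did 72.15% of all 27025 windows. Neb and Myom2 had no window in the table. The 250 bases before the start are shown for Ttn, the longest member, and for the myosin-binding protein genes, whose dox responses parted at 120 h. Letters run 5′ to 3′ on the gene's own strand, and capitals mark CANNTG.
Ttn, chr2:76982548-76982797, minus strand: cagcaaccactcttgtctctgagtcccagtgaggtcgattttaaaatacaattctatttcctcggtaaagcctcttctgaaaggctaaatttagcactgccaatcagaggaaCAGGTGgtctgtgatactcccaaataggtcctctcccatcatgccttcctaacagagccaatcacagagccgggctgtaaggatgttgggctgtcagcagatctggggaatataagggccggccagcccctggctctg
Mybpc1, chr10:88605153-88605402, minus strand: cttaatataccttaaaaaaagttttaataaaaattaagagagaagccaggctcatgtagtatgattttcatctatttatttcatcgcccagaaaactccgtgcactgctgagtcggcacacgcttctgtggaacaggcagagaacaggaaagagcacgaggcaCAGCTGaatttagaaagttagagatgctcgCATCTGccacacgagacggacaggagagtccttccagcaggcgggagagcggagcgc
Mybpc2, chr7:44524670-44524919, minus strand: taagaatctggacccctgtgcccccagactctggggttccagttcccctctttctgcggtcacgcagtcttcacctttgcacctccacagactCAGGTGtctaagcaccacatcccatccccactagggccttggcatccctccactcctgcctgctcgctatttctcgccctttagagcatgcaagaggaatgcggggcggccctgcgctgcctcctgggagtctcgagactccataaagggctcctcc
Mybph, chr1:134193198-134193447, plus strand: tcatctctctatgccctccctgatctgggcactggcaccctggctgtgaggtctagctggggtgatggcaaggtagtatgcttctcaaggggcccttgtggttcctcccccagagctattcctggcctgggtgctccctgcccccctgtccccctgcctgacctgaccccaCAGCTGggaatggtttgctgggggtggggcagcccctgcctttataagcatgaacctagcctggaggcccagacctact
Mybph held CAGCTG, the palindromic E-box, 79 bases before its start, and Mybpc1 held CAGCTG 87 bases and CATCTG 57 bases before its start with CAGATG 6 bases after it. CAGCTG was found in 16.1% of all windows. Ttn held CAGGTG 138 bases before the start, and Mybpc2 held the same letters 157 bases before the start with CACCTG, their reverse complement, 8 bases after it. CAGGTG on either strand was found in 20.0% of windows. Ttn was also the only member whose window matched the MEF2 element, searched as CTA and TAG with any 4 bases between them, 166 bases before the start (CTAAATTTAG), a pattern in 3.70% of windows. In Myom3, the only match to CANNTG was CACCTG 142 bases before the start, and the Myom1 window, which lies at the start of transcript Myom1-203 and 16927 bases inside the gene, held 3 matches, 231, 130 and 55 bases before it, as at least 3 were held by 17.5% of windows. These matches are letters in a window and not measured binding.

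Libraries held 15066338 to 50950674 estimated counts assigned to genes (median 22837926). Values are CPM, counts scaled to a common library size, after TMM scaling, a scaling that removes differences in library composition, and a gene was called when edgeR's quasi-likelihood test gave a Benjamini-Hochberg adjusted p under 0.05 over all genes tested and a change of over 2-fold. Of the induced genes, Mcam was 69.0 to 74.7 CPM in iMcam +dox against 17.1 to 19.8 in no dox, while the ranges of Cdh23 in iCdh23 overlapped between +dox (425.7 to 568.1) and no dox (347.7 to 450.6). Annotated Myod1 in iMyoD1 was 178 to 197 CPM with dox against 171 to 181 without at 0 h, and 82.3 to 97.9 against 231.1 to 305.3 at 120 h. Whether the reference used for quantification held the transgene sequences was not given in the sources used here, so these Myod1 and Cdh23 values do not measure induction. All 10 myotube markers reached 1 CPM in some library, whereas 0 of 5 endothelial, 1 of 5 adipocyte, 1 of 5 cardiac, 2 of 5 osteoblast and 3 of 5 leukocyte markers did so.

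In growth medium all 8 members were near the limit of detection. Without dox, Ttn was 0.359, 0.750 and 0.798 CPM in replicates 1, 2 and 3 at 0 h, Mybpc1 had 0 counts in all 3 libraries, and no member reached 1 CPM in a library. After 24 h of serum withdrawal Myom2 stood apart, at 9.83, 10.6 and 10.5 CPM against 0.777, 0.450 and 0.499 at 0 h, a rise of 18.5-fold (log2 fold change 4.21, SE 0.193, edgeR adjusted p = 1.78e-10). Myom2 was the highest member at this time, in all 3 libraries. Ttn was 1.21 to 1.62 CPM at 24 h and rose 2.19-fold (adjusted p = 0.00828), a call lost without 0 h no dox replicate 1 (log2 0.88) and in a fit of all 47 libraries (adjusted p = 0.220). Mybph also rose, to 0.485 to 1.18 CPM (14 to 29 counts) from 0 counts in replicates 1 and 3 and 1 count in replicate 2, too few for a fold. These were all 3 members with enough counts to be tested, and 9.49% of all genes tested were called higher. Over this step, summed proliferation markers went from 3039 to 3061 CPM down to 915.1 to 954.6. The sum of the myotube markers went from 395.1 to 406.8 CPM down to 202.8 to 225.5, and the part of these markers was not tested. Bulk RNA cannot tell a rise in the share of differentiating cells from more RNA per cell, here or below.

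From 24 to 48 h without dox all 8 members rose, and 19.3% of all genes tested were called higher. Ttn reached 696, 748 and 619 CPM (687.7 ± 65.2, SD, n = 3), 496.5-fold above 24 h, and Neb reached 319, 350 and 280 CPM, 912-fold above 24 h. No 48 h library of either giant gene came near a 24 h library. The rise of Myom1 was 689-fold to 104.6 ± 5.50 CPM, that of Myom3 was 828-fold to 95.4 ± 9.26 CPM, and that of Myom2 was 44.3-fold to 456.2 ± 13.2 CPM from its higher 24 h level. Mybph rose 1907-fold, to 1546, 1497 and 1325 CPM. Mybpc1 and Mybpc2 had 0 counts in every 24 h library and rose at least 258-fold and at least 33.9-fold (bounds set at 3 counts per library), to 27.5 ± 1.31 and 3.62 ± 0.775 CPM. The 24 h and 48 h libraries lie in separate tables, and the 48 h libraries carry a batch label that the 24 h libraries lack, so time and batch cannot be told apart in this step. Summed myotube markers went from 203 to 226 CPM at 24 h to 15250 to 16840 at 48 h. The sum of the proliferation markers also rose, from 915.1 to 954.6 CPM to 1462 to 1511, and the part of these markers was not tested.

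**Figure D1:**
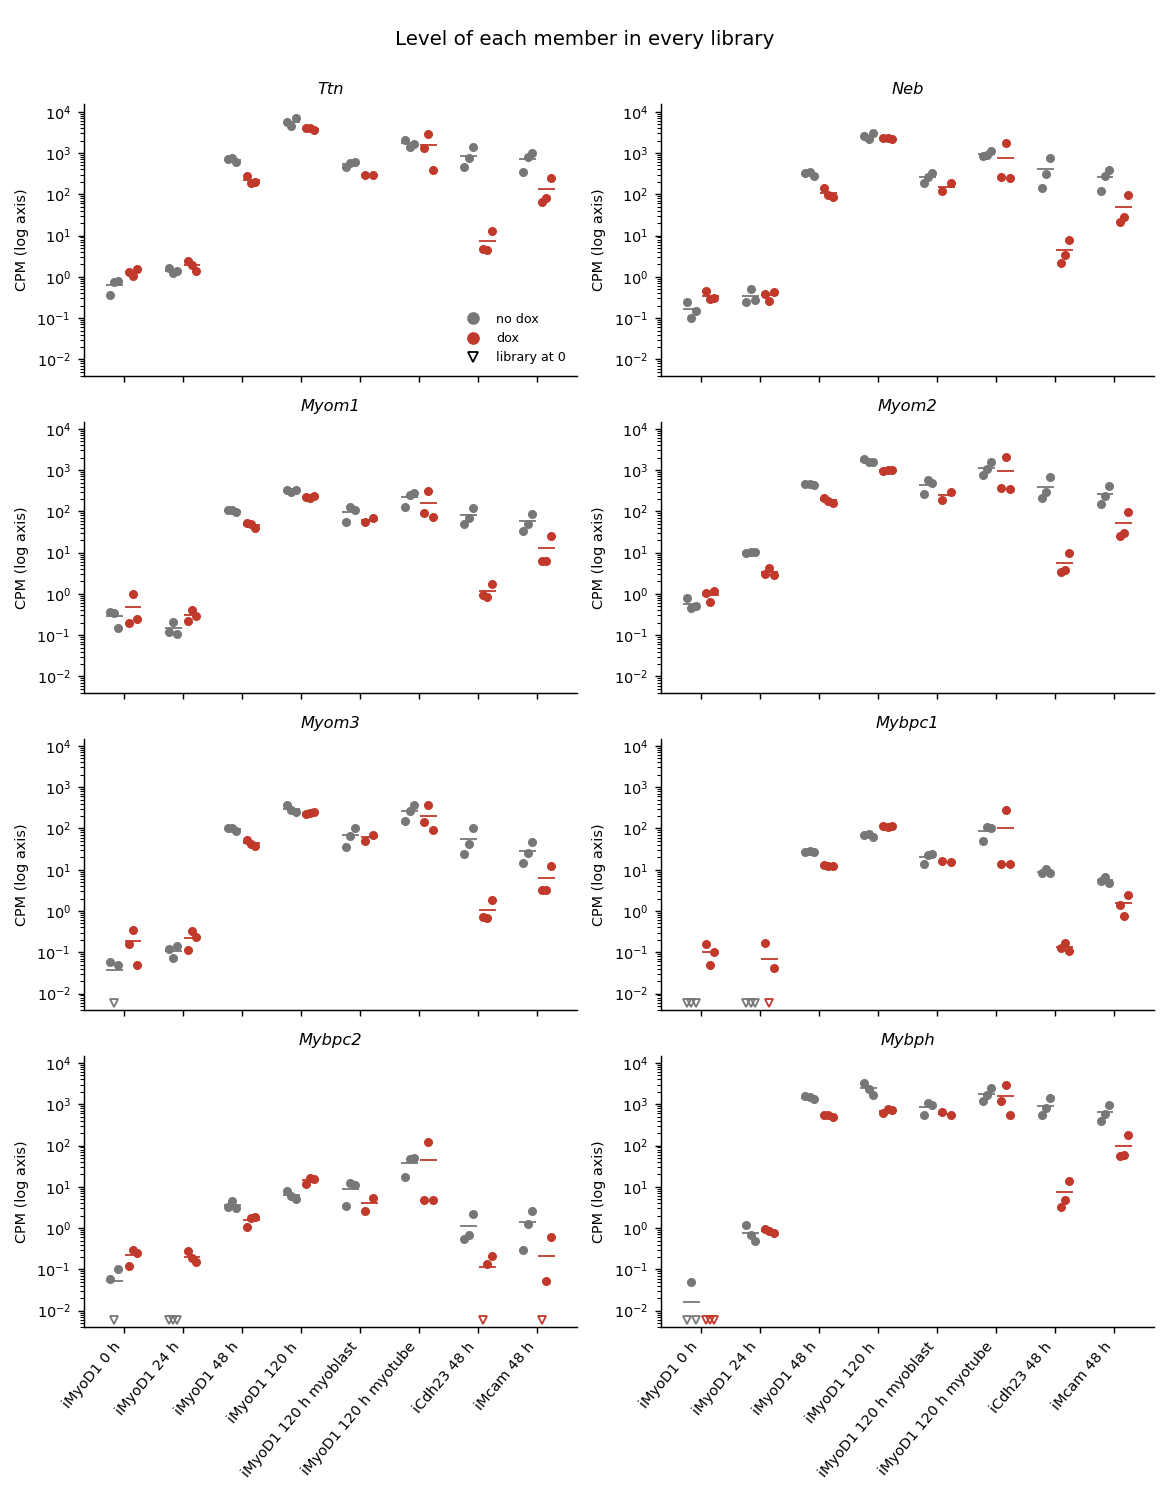
Level of each member in CPM (log axis) in every library, by group; grey points are no dox, red points +dox, short lines group means and open triangles libraries with a count of 0. No member exceeded 10.6 CPM in a library at 0 or 24 h, and in iMyoD1 whole cultures without dox each was higher at 120 h than at 48 h.

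Between 48 and 120 h without dox, which share a table and a batch label, 6 of 8 members rose more than 2-fold, against 11.7% of all genes tested. The giant genes rose most. Ttn was 5738, 4554 and 7025 CPM at 120 h (5772 ± 1236), 8.51-fold above 48 h (log2 3.09, SE 0.168, edgeR adjusted p = 1.02e-06), and Neb was 2617, 2204 and 3015 CPM (2612 ± 405), 8.37-fold higher (log2 3.06, SE 0.143, adjusted p = 5.41e-07). The M-band genes rose together by less: Myom1 3.08-fold, Myom2 3.70-fold and Myom3 3.15-fold. Mybpc1 rose 2.52-fold to 63.7 to 71.5 CPM, a call lost in a fit of all 47 libraries (adjusted p = 0.0570). Mybpc2 (1.77-fold, adjusted p = 0.0101) and Mybph (1.69-fold, adjusted p = 0.00907) passed the test on p and stayed under 2-fold, with all 120 h libraries above all 48 h libraries for both genes. The 8 members summed to 13.7% of the summed CPM of 20 thick and thin filament genes (myosins, actins, troponins, tropomyosins) at 48 h and to 61.2% at 120 h. Summed proliferation markers went from 1462 to 1511 CPM down to 296 to 330.4, and their part was not tested.

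The size of the 48 to 120 h difference followed transcript length across all genes, and this was examined after the members' values were seen. Among genes other than the members, the median log2 fold change without dox was -0.51 for 3537 genes whose longest transcript was under 2 kb, -0.10 for 5473 genes of 2 to 4 kb, 0.33 for 4048 genes of 4 to 8 kb and 0.89 for 691 genes over 8 kb (quartiles 0.34 to 1.39). Ttn (3.09) and Neb (3.06) lay above the upper quartile of the longest class, and Myom1 (1.62), Myom2 (1.89) and Myom3 (1.66) above that of the 4 to 8 kb class (0.79). Mybpc1 (1.33), Mybpc2 (0.82) and Mybph (0.76) lay above that of the 2 to 4 kb class (0.41). With dox the same 4 medians were -0.67, -0.14, 0.43 and 1.06. The dox comparisons showed smaller differences between length classes, with medians of 0.06, 0.02, -0.03 and -0.03 at 48 h and -0.10, -0.03, 0.08 and 0.17 at 120 h. The medians also rose with length in iCdh23 (-0.17 to 0.20) and iMcam (-0.11 to 0.19) and fell with it in the myotube-enriched fraction (0.22 to -0.08). The part of length in the members' rise from 48 to 120 h was not tested.

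**Figure D2:**
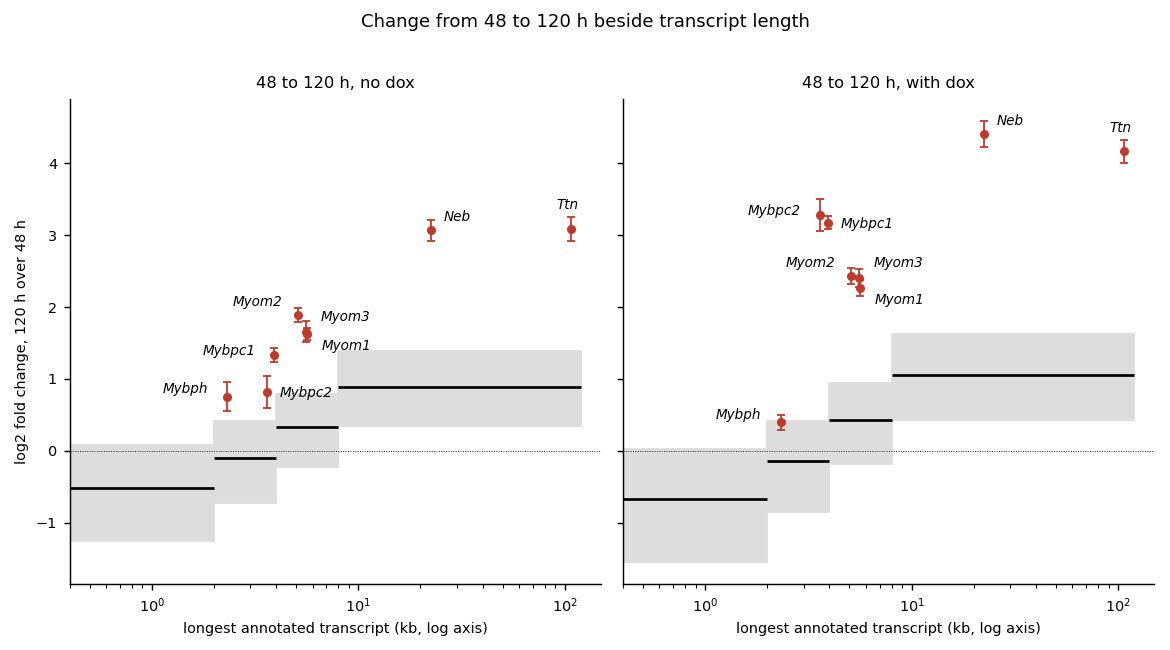
Log2 fold change from 48 to 120 h (y axis) against the longest annotated transcript in kb (x axis, log scale) for the 8 members with their standard errors. The left panel is without dox and the right panel with dox. Grey boxes span the quartiles, and black lines mark the medians, of all other genes in 4 length classes. Ttn and Neb lie above the box of genes over 8 kb, whose median without dox is 0.89.

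The salmon estimates split Neb counts over several annotated transcripts, and in iMyoD1 whole cultures the split changed between 48 and 120 h. Neb-202 (22489 bases) took 18.4% of Neb counts at 48 h and 61.0% at 120 h without dox, and 16.4% and 53.0% with dox. Neb-201 (10298 bases), which starts 154737 bases inside the gene and covers its 3′ part, took 47.7% at 48 h and 16.9% at 120 h without dox. Neb-208, a processed transcript of 1599 bases near the 3′ end, went from 23.6% to 4.80%. In other groups the split differed from that of iMyoD1 whole cultures at the same time. Neb-202 took 50.7% in iCdh23 and 43.8% in iMcam at 48 h without dox, and Neb-201 took 45.8% to 52.3% in the 120 h fractions. These groups differ from the iMyoD1 whole cultures in line or handling and in the deposited set, and these cannot be told apart. Ttn-201 took 64.3% of Ttn counts at 48 h and 78.0% at 120 h without dox. In myotube-enriched +dox replicate 1 it took 2.23%, with Ttn-205 at 63.1%. These shares are estimates from reads that long transcripts have in common, and no test was made on them.

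**Figure D3:**
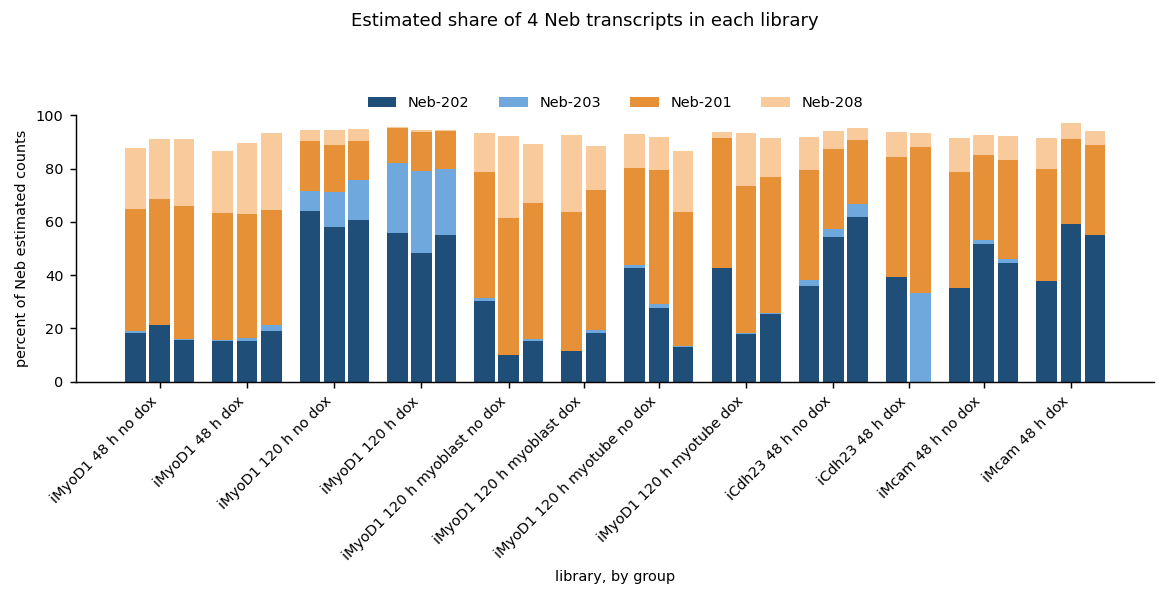
Share of Neb counts (percent, y axis) assigned to transcripts Neb-202, Neb-203, Neb-201 and Neb-208 in each library from 48 h on, stacked; the library with under 100 Neb counts is not drawn. In iMyoD1 whole cultures without dox the long Neb-202 takes 61.0% at 120 h against 18.4% at 48 h, and in iCdh23 it takes 50.7% at 48 h.

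Per kilobase of expressed transcript, Mybph was the most abundant member and Myom2 the next in every group from 48 h on, and Mybpc2 was the least. At 120 h without dox, mean levels were 1325 CPM per kb for Mybph, 333 for Myom2, 163 for Neb, 71.2 for Ttn, 63.5 for Myom3, 59.7 for Myom1, 18.6 for Mybpc1 and 1.75 for Mybpc2. Ttn, Myom3 and Myom1 were neighbours whose libraries overlapped. The length used was a fixed mean for each gene over all libraries. With the longest transcript as the length, the values were 116.1 for Neb, 56.28 for Myom1, 54.03 for Ttn and 53.34 for Myom3, with Myom1 above Ttn. At 48 h without dox Ttn stood lower in the order, at 8.48 CPM per kb, below Myom3 (20.4), Neb (19.8) and Myom1 (19.7). Myom2 outnumbered Myom1 4.12-fold to 5.75-fold per kb in the group means from 48 h on. The ratio of Myom3 to Myom1 was lowest in iMcam no dox (0.55) and highest in myotube-enriched +dox. Over all 16 groups, the mean CPM of Ttn, Neb, Myom1, Myom2, Myom3 and Mybph was highest in whole culture at 120 h without dox, with libraries clear of the next group for Ttn and Myom1 and overlapping it for the other 4. Mybpc1 was highest at 120 h with dox (112.7 ± 2.59 CPM), a group that overlapped the next. Mybpc2 was highest in the myotube-enriched fraction, at 43.8 ± 67.4 CPM with dox and 37.7 ± 17.6 without, overlapping groups of which the second lay clear of whole culture at 120 h with dox (14.6 ± 2.55).

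In growth medium, 24 h of dox left the members near background. Ttn was 1.28, 1.07 and 1.55 CPM with dox against 0.359, 0.750 and 0.798 without, every +dox library above every control, and was called 2.01-fold higher (log2 1.01, SE 0.360, edgeR adjusted p = 0.0395). The call lay at the 2-fold limit and was lost when any 1 of the 6 libraries was left out (log2 0.75 to 1.20). Myom2, the other member tested, was 0.953 ± 0.282 CPM against 0.575 ± 0.176 (adjusted p = 0.139). Of all genes tested 2.91% were called higher. Neb, Mybpc1 and Mybpc2 also had every +dox library above every control, at 0.0484 to 0.441 CPM, with too few counts to be tested.

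At 24 h of serum withdrawal Myom2 fell with dox. Myom2 was 3.06, 4.14 and 2.88 CPM with dox against 9.83, 10.6 and 10.5 without, and fell 3.16-fold (log2 -1.66, SE 0.139, edgeR adjusted p = 7.33e-07), 1 of 4 members tested against 5.13% of all genes called lower. Without dox, Myom2 was the highest of the members at this time. Ttn (1.36 to 2.39 CPM with dox against 1.21 to 1.62), Neb (0.259 to 0.424 against 0.244 to 0.497) and Mybph (0.763 to 0.956 against 0.485 to 1.18) overlapped between the groups and did not pass. Mybpc2 (0.148 to 0.281 CPM with dox against 0 counts in all 3 controls) and Myom1 (0.225 to 0.407 against 0.104 to 0.213) had every +dox library above every control, with too few counts for the test. DESeq2, and edgeR without the filter on low counts, called 2 members, Myom2 lower and Mybpc2 higher. The dox effect on Myom2 differed between 24 and 0 h by -2.46 on the log2 scale (SE 0.359, adjusted p = 4.56e-05), among 34.1% of genes with a difference at this threshold.

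At 48 h all 8 members fell with dox in iMyoD1, against 8.46% of all genes called lower, and no +dox library overlapped a control library for any of them. The median log2 fold change was -1.29 over the members and 0.01 over all genes tested. Ttn was 276, 185 and 194 CPM with dox against 696, 748 and 619 without (log2 -1.67, SE 0.143, edgeR adjusted p = 3.63e-06). Neb was 142, 93.3 and 86.4 CPM against 319, 350 and 280 (2.98-fold lower, log2 -1.57, SE 0.164, adjusted p = 1.56e-05). In both giant genes replicate 1 was the highest of the +dox libraries and still lay well under the lowest control. In a fit of all 47 libraries, which share 1 estimate of the spread, 5 members were called, and Myom3 (adjusted p = 0.0693), Mybpc1 (0.144) and Mybpc2 (0.255) did not pass.

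The M-band genes fell by similar amounts. Myom1 was 52.3, 49.3 and 39.5 CPM with dox against 108, 108 and 98.2 (log2 -1.16, SE 0.0946, edgeR adjusted p = 2.44e-06), Myom2 212, 182 and 161 against 454, 470 and 444 (log2 -1.32, SE 0.0916, adjusted p = 7.96e-07), and Myom3 53.3, 42.2 and 37.6 against 99.9, 102 and 84.8 (log2 -1.11, SE 0.121, adjusted p = 2.07e-05). Within each +dox trio, replicate 3 was the lowest library. Myom3 was the member closest to the 2-fold limit, and it lay under it when library totals alone were used for scaling (log2 -0.97).

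Among the myosin-binding proteins, Mybph was 540, 561 and 494 CPM with dox against 1546, 1497 and 1325 (2.77-fold lower, log2 -1.47, SE 0.0801, edgeR adjusted p = 1.57e-07). Slow-form Mybpc1 was 12.9, 12.5 and 12.1 CPM against 27.6, 28.8 and 26.2 (log2 -1.15, SE 0.0795, adjusted p = 7.72e-07). Fast-form Mybpc2 was 1.06, 1.73 and 1.82 CPM against 3.33, 4.50 and 3.04 (log2 -1.27, SE 0.265, adjusted p = 0.00200), the least precise of the 8 and the lowest in level. Summed myotube markers moved the same way, 6735 to 6931 CPM with dox against 15250 to 16840, and so did summed proliferation markers, 505 to 525 against 1462 to 1511. Their part in the members' fall was not tested.

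**Figure D4:**
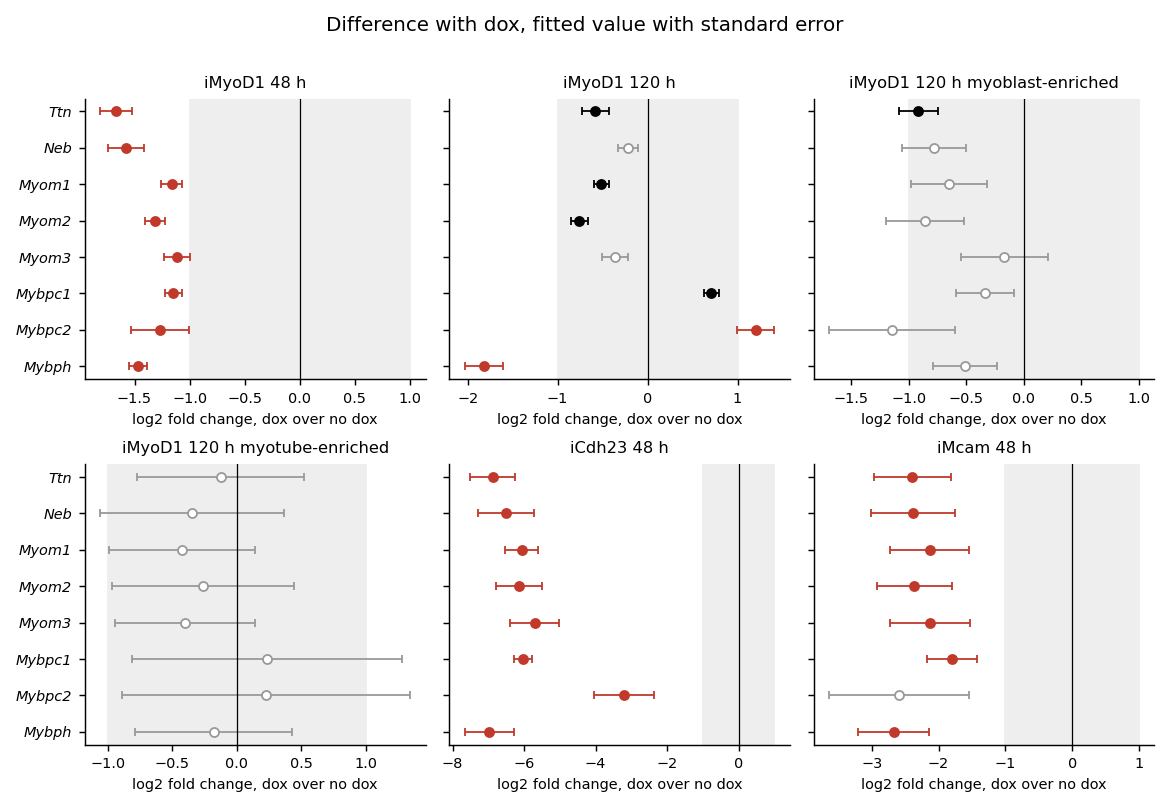
Log2 fold change of +dox over no dox with its standard error for the 8 members in 6 comparisons; red marks calls, black an adjusted p under 0.05 with a change under 2-fold, open grey a test not passed, and the grey band changes under 2-fold. The x scales differ between panels, and all 8 members are red and below 0 at 48 h.

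By 120 h the members no longer responded alike to dox. Mybpc2 was called higher (7.32% of all genes tested were), Mybph was called lower (8.8% were), and the other 6 lay within 2-fold. Mybph was 606, 749 and 731 CPM with dox against 3271, 2361 and 1661 without, 3.53-fold lower (log2 -1.82, SE 0.214, edgeR adjusted p = 0.000160). Its control libraries spread over a wider range than at 48 h, and the lowest of them was still above every +dox library. Mybpc2 was 11.8, 16.7 and 15.5 CPM with dox against 7.83, 6.06 and 5.04, 2.30-fold higher (log2 1.20, SE 0.211, adjusted p = 0.00156). Mybpc1 was 114, 110 and 114 CPM against 69.8, 71.5 and 63.7, 1.63-fold higher with an adjusted p of 0.000182, under the fold limit. In the fit of all 47 libraries Mybpc2 did not pass (adjusted p = 0.204), which left 1 member called. Mybpc1 did not pass on p in every alternative fit (highest adjusted p 0.341, edgeR or DESeq2). Both C-protein genes had every +dox library above every control, and Mybph every +dox library below.

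Of the giant and M-band genes, Ttn was 4009, 4089 and 3590 CPM with dox against 5738, 4554 and 7025 (log2 -0.58, SE 0.146, edgeR adjusted p = 0.0101), and the 3 +dox libraries lay below the lowest control. Neb overlapped between the groups, at 2261, 2355 and 2177 CPM against 2617, 2204 and 3015 (log2 -0.22, SE 0.115, adjusted p = 0.151). Nebulin was therefore the member with the smallest difference. Myom1 (log2 -0.51, adjusted p = 0.000787) and Myom2 (log2 -0.76, adjusted p = 0.000221) were lower on p alone, and Myom3 did not pass (log2 -0.36, adjusted p = 0.0599), although its 220.7 to 244.9 CPM with dox did not overlap its 248.3 to 371.3 CPM without. Ttn, Myom1 and Myom2 did not pass in every alternative fit (highest adjusted p 0.349, 0.383 and 0.239, edgeR or DESeq2). Summed myotube markers were 8473 to 10480 CPM with dox against 11330 to 17130, and summed proliferation markers, unlike at 48 h, were higher with dox, at 503 to 570.5 against 296 to 330.4. Their part in the members' values was not tested.

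The change of the dox effect from 48 to 120 h was itself tested, and 7 of 8 members passed, among 34.1% of genes that did. The difference of log2 fold changes was 2.47 for Mybpc2 (SE 0.339, edgeR adjusted p = 8.95e-05), 1.86 for Mybpc1 (SE 0.111, adjusted p = 5.12e-08), 1.36 for Neb, 1.09 for Ttn, 0.76 for Myom3, 0.65 for Myom1 and 0.56 for Myom2. All 7 were less negative, or positive, at 120 h. Mybph was the exception, at -0.35 (adjusted p = 0.305), a value that passed only without 120 h no dox replicate 3 (-0.56, adjusted p = 0.0164). Within a library, the per-kb ratio of Mybph to Mybpc2 was 648 to 823 at 120 h without dox and 88.4 to 101 with dox, and that of Neb to Ttn was 2.17 to 2.45 without and 2.86 to 3.07 with dox, with no overlap in either case.

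**Figure D5:**
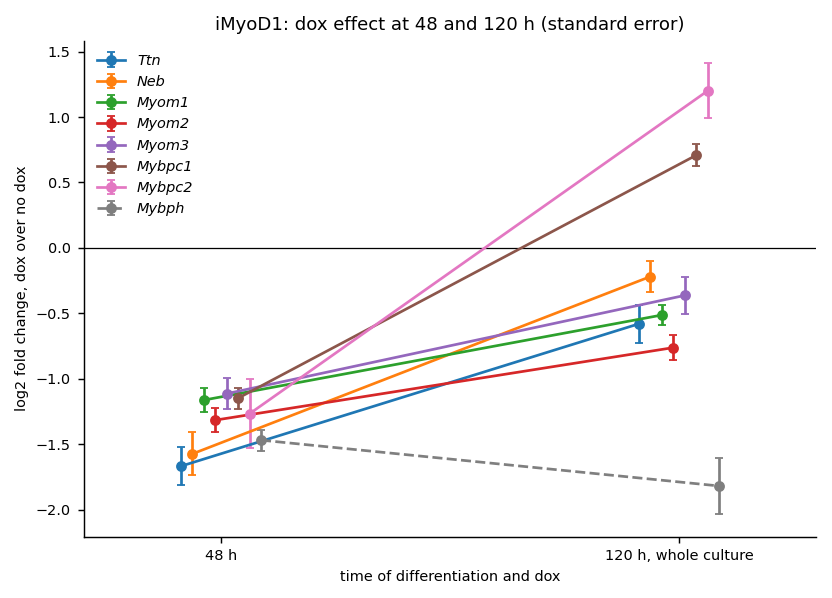
Log2 fold change of +dox over no dox (y axis, with standard errors) at 48 and 120 h for each member, joined by lines, Mybph dashed. Of the 8 lines, 7 rise, with Mybpc1 and Mybpc2 ending above 0 (0.71 and 1.20), and Mybph ends lowest (-1.82).

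The members were also followed in time under dox. From 0 to 24 h, 2 of 4 members tested rose, Myom2 3.49-fold and Mybph at least 5.52-fold, against 5.19% of all genes. From 24 to 48 h all 8 rose (17% of all genes), with smaller folds than without dox for 7 of them, such as 116.5-fold for Ttn and 615-fold for Mybph. Myom2 was the exception, at 55.4-fold (log2 5.79 with dox against 5.47 without). From 48 to 120 h 7 of 8 rose (15.1% of all genes): Neb 21.2-fold, Ttn 17.9-fold, Mybpc2 9.73-fold, Mybpc1 9.03-fold, Myom2 5.39-fold, Myom3 5.27-fold and Myom1 4.79-fold. Mybph was 540, 561 and 494 CPM at 48 h and 606, 749 and 731 at 120 h, 1.32-fold (edgeR adjusted p = 0.00314). The series with and without dox are separate libraries, and the differences of these folds between them were tested above for 0 to 24 h (Myom2) and 48 to 120 h, and were not tested for 24 to 48 h.

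Without dox, every member was higher in the mean in the myotube-enriched than in the myoblast-enriched fraction at 120 h, by 2.13-fold to 4.54-fold, and 3 of 8 were called, against 0.57% of all genes tested. Ttn was 2066, 1413 and 1655 CPM in the myotube-enriched fraction against 462, 579 and 608 (3.16-fold, edgeR adjusted p = 0.0349), and Neb was 844, 914 and 1118 CPM against 189, 269 and 334 (3.70-fold, adjusted p = 0.0349). Mybpc1 was 50.9, 110.5 and 105 CPM against 13.6, 22.4 and 23.7 (4.54-fold, adjusted p = 0.0403). Libraries overlapped between the fractions only for Myom1, whose replicate 1 of the myotube-enriched fraction (128 CPM) lay under replicate 2 of the other (129.5). The other 5 members had adjusted p from 0.0870 to 0.190. Replicate 1 was the lowest of the myotube-enriched trio for every member except Ttn. Summed myotube markers were 15660 to 26250 CPM in the myotube-enriched and 7498 to 11420 in the myoblast-enriched fraction, and summed proliferation markers 207 to 748 and 530.2 to 1394, and their part was not tested. Deviations of same-numbered replicates correlated at 0.117 to 0.413 here, while pairs of other numbers reached 0.285. With the replicate number as a block all 8 members were called (log2 1.08 to 2.15, edgeR adjusted p 0.00327 to 0.0318). The count also rested on single libraries, being 0 without myotube-enriched replicate 3 or any 1 myoblast-enriched replicate and 5 without myotube-enriched replicate 1.

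With dox the fractions held few comparisons that could be read. In the myotube-enriched fraction, replicate 2 stood far above replicates 1 and 3 for all 8 members, for example Mybpc1 at 283 CPM against 14.1 and 13.7, Mybpc2 at 121.5 against 4.80 and 4.90, and Neb at 1719 against 269 and 251.5. Summed myotube markers in this group ran from 6720 to 25050 CPM. Of the 8 members 0 were called for dox in this fraction (edgeR; 0 at an unadjusted p under 0.05, and 0 by DESeq2), as 0% of all 14112 genes were, 79 of them passing unadjusted and 2 by DESeq2. The spread of 1 group thus limits every statement on it.

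In the myoblast-enriched fraction 0 of 8 members were called for dox (edgeR; 3 at an unadjusted p under 0.05, 0 by DESeq2), against 1.82% of all genes called lower. Ttn was 285 and 293 CPM in the 2 +dox libraries against 462, 579 and 608 (log2 -0.92, SE 0.168, edgeR adjusted p = 0.0339), under 2-fold, without overlap. Neb was 119 and 187 CPM against 189, 269 and 334 (adjusted p = 0.157), also without overlap. Summed myotube markers were 6500 to 6825 CPM with dox against 7498 to 11420, and their part was not tested. With the replicate block Ttn, Myom2 and Mybpc2 were called, 3 members. Between the fractions with dox, 0 of 8 members were called (edgeR; 3 unadjusted, namely Ttn, Neb and Myom3; 0 by DESeq2), as 0% of all 14291 genes were, with folds of 2.64 to 11.2. The dox effect was not shown to differ between the fractions for any member (edgeR 0 of 8, unadjusted 0; 0% of all genes).

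Whole cultures at 120 h lay above both fractions for the giant genes. Without dox, mean Ttn in whole culture was 3.37-fold and mean Neb 2.72-fold that of the myotube-enriched fraction, with every whole-culture library above every fraction library, and with dox the ratios were 2.53 and 3.03. Fast-form Mybpc2 was lower in whole culture than in the myotube-enriched fraction, at 6.31 ± 1.41 against 37.7 ± 17.6 CPM without dox. The myoblast-enriched fraction, at 8.88 ± 4.77, overlapped whole culture. With dox, Mybpc2 was 14.6 ± 2.55 CPM in whole culture, 43.8 ± 67.4 in the myotube-enriched fraction, which overlapped it, and 3.97 ± 1.94 in the myoblast-enriched fraction. Without dox, the other 5 members lay between these cases, from 0.771-fold (Mybpc1) to 1.47-fold (Myom1) of the myotube-enriched fraction, and with dox from 0.445-fold (Mybph) to 1.41-fold (Myom1). The whole cultures and fractions differ in handling and in table as well as in cells, and these cannot be told apart here. Among all other genes, the median log2 ratio of whole culture to the higher fraction also went with length, from -0.44 under 2 kb to 0.63 over 8 kb without dox.

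In iCdh23 at 48 h all 8 members fell with dox, against 17% of all genes called lower. Ttn was 4.63, 4.47 and 12.8 CPM with dox against 468.5, 758 and 1362 without (118-fold lower, log2 -6.88, SE 0.633, edgeR adjusted p = 7.18e-05). Mybph was 3.17, 4.83 and 14.1 CPM against 560, 821 and 1404 (125.5-fold lower, log2 -6.97, SE 0.688, adjusted p = 0.000101). Replicate 3 was the highest library of both groups for these genes, yet the groups lay far apart. Neb fell 90.5-fold, Myom2 70.5-fold, Myom1 67.2-fold and Myom3 52.0-fold. With 1 library left out, their log2 values ran over -7.19 to -5.67 (Neb), -6.8 to -5.5 (Myom2), -6.45 to -5.62 (Myom1) and -6.36 to -4.93 (Myom3). Mybpc1 fell 64.8-fold, from 8.24, 10.3 and 8.33 CPM to 0.125, 0.166 and 0.107, with the least spread between replicates of the 8. Its +dox libraries held only 3 to 5 counts, so the size of this fold and the narrow spread rest on few reads. Mybpc2, at 0.532, 0.680 and 2.21 CPM without dox, was already low and fell 9.22-fold (log2 -3.20, SE 0.843, adjusted p = 0.0118) to 0, 0.132 and 0.214. Summed myotube markers went from 6721 to 10480 CPM down to 261 to 368, and summed proliferation markers from 968 to 1252 down to 58.4 to 77.0. Their part in these values was not tested.

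In iMcam 7 of 8 members fell with dox, against 9.85% of all genes called lower. Ttn was 63.8, 80.0 and 248 CPM with dox against 356, 784 and 975.5 without (5.27-fold lower, log2 -2.40, SE 0.575, edgeR adjusted p = 0.0111), and Mybph was 54.7, 59.6 and 183.5 CPM against 404, 577 and 971 (6.39-fold lower, log2 -2.68, SE 0.531, adjusted p = 0.00509). Replicate 3 was the highest library in both groups here too, and the groups did not overlap. Neb fell 5.20-fold, Myom2 5.14-fold, Myom1 4.40-fold, Myom3 4.39-fold and Mybpc1 3.49-fold. Leaving out 1 library moved the log2 values over -3.33 to -1.99 (Neb), -3.22 to -1.91 (Myom2), -3.13 to -1.7 (Myom1), -3.07 to -1.61 (Myom3) and -2.3 to -1.49 (Mybpc1). Mybpc2 was 0, 0.0510 and 0.599 CPM against 0.298, 1.28 and 2.62, overlapping, and did not pass (log2 -2.59, SE 1.05, adjusted p = 0.0751). With the replicate number as a block it was called (log2 -2.74, adjusted p = 0.00757), which made 8 of 8, and without iMcam +dox replicate 2 only 4 members were called. Summed myotube markers were 884 to 2121 CPM with dox against 5058 to 11190, and summed proliferation markers 110 to 179 against 854 to 1064.

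The fall with dox was larger in iCdh23 than in iMcam for 7 of 8 members by the test of the difference, among 10.6% of genes that passed it. The difference of log2 fold changes was -4.46 for Ttn, -4.27 for Mybph, -4.19 for Mybpc1, -4.09 for Neb, -3.91 for Myom1, -3.75 for Myom2 and -3.54 for Myom3. For Mybpc2 it was -0.58 (edgeR adjusted p = 0.871). The count of 7 went down to 4 without iCdh23 +dox replicate 1, without iCdh23 +dox replicate 2 or without iMcam no dox replicate 2, and Neb, Myom2 and Myom3 were the members that no longer passed. Without dox, Mybph was the highest and Mybpc2 the lowest member per kb in both lines and in iMyoD1 at 48 h.

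Genes of the same structures were taken from lists of 26 titin, nebulin and M-band partners and 20 thick and thin filament genes. At 48 h in iMyoD1, 16 of 26 partners and 15 of 20 filament genes fell with dox and none rose, where 8.46% of all genes tested were called lower, with list medians of -1.05 and -1.24 on the log2 scale against -1.29 for the members. Ankrd23, a titin-binding ankyrin repeat protein, fell 4.48-fold from 114.0 ± 6.04 to 25.7 ± 1.73 CPM. Tcap, which caps titin at the Z-disc, fell 4.12-fold. Myh4, a fast myosin heavy chain, fell 3.97-fold from 3.36 ± 0.181 CPM, and Acta1, skeletal actin, fell 2.81-fold from 5969 ± 341 CPM.

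At 120 h, 1 of 26 partners was higher and 9 were lower, and 8 of 20 filament genes were lower and none higher, where 7.32% of all genes tested were called higher and 8.8% lower. The partner that rose was Actn2, the Z-disc crosslinker alpha-actinin, from 124.7 ± 27.1 to 286.3 ± 34.3 CPM (2.28-fold, edgeR adjusted p = 0.000307). Ankrd1, a stress-responsive titin partner, fell 10.2-fold, and Trim54, a ubiquitin ligase of the titin-binding MuRF family, fell 7.30-fold. Myh7, the slow myosin heavy chain, fell 6.41-fold from 110.9 ± 27.4 to 17.5 ± 2.55 CPM. Myh1, a fast heavy chain, fell 5.36-fold. In iCdh23 22 of 26 partners and 19 of 20 filament genes fell (17% of all genes tested), and in iMcam 19 of 25 and 16 of 20 fell (9.85%). The members' median was -6.10 in iCdh23 and -2.37 in iMcam, beside -5.39 and -2.28 for the partners and -6.06 and -2.69 for the filament genes.

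Across the 16 group means, as log2(CPM + 0.5), Ttn and Neb were the most alike members (Pearson r = 0.998) and Mybpc2 and Mybph the least (r = 0.775). Groups share a time course and, in each comparison, cells of the same line, so these values describe the pattern and carry no test. Among 11082 genes searched, those most like Ttn and Neb were Casq2, the calsequestrin that stores calcium, Cacna1s, the voltage sensor of the muscle calcium channel, and the unnamed gene Gm28653 (r = 0.992 to 0.993). Cacna1s (r = 0.998) and Smyd1, a muscle lysine methyltransferase (r = 0.997), were most like Myom1, with Gm28653 next (r = 0.996). Mylpf, a fast myosin light chain (r = 0.986), and Atp2a1, the fast calcium pump (r = 0.985), were most like Myom2, again with Gm28653 next (r = 0.984), and Myoz2, Myl1 and Hrc (r = 0.996 each) most like Myom3. Mybpc1 lay closest to Smpx (r = 0.996), Actn2 (r = 0.992) and Myh8, the perinatal myosin heavy chain (r = 0.991). Mybpc2 lay closest to Ckmt2, the mitochondrial creatine kinase (r = 0.967), Abra and Rbfox1 (r = 0.963 each), and Mybph to Rbm24, a muscle splicing regulator (r = 0.997), with Actc1 and Acta1 next (r = 0.996).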

How the data were processed

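Poly(A) RNA libraries were sequenced and quantified by the authors with nf-core/rnaseq and salmon, and the estimated counts per transcript that the authors deposited in 3 tables were summed per gene and rounded to whole numbers. The annotation and strand setting were not given in the sources used here. GENCODE vM21 on GRCm38 matched 98.72% of transcripts and supplied positions. The gene lists and comparisons, like the members, were chosen with earlier results of these data known. Each comparison was fitted on its own groups with edgeR 4.0.16 (TMM scaling, filterByExpr, glmQLFit and glmQLFTest) in R 4.3.3, and differences of dox effects as an interaction. Alternatives were DESeq2 1.42.0, other scalings, no filter, all 47 libraries in 1 fit, a replicate block and leaving out each library. The fits were also run on simulated counts, and that outcome is not used as support here. Every pair of same-numbered replicates deviated together (correlation over 0.1) in iMcam (0.227 to 0.419) and between the fractions without dox (0.117 to 0.413), and in no other comparison of 3 pairs. Pairs of other numbers reached 0.135 in iMcam and 0.285 between these fractions. Beyond the members, the text names from the partner and filament lists the genes that passed with the largest fold at 48 and 120 h in iMyoD1 (up to 2 per direction), and the 3 genes with the highest correlation to each member. No 2 replicates agreed within sampling noise. Bounds from a count of 0 cover counting error only. Columns of no measured sample were not used. Counts over a list of relatives of the members are not reported here.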

Additional observations from a re-analysis of the deposited data

Results flagged for a closer look

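These results were picked out because the effect of dox differed between 2 conditions by a test of the difference itself (edgeR interaction, adjusted p under 0.05). Between 0 and 24 h, the log2 effect on Myom2 changed by -2.46. Between 48 and 120 h, the log2 effect of dox changed by 1.09 for Ttn, 1.36 for Neb, 0.65 for Myom1, 0.56 for Myom2, 0.76 for Myom3, 1.86 for Mybpc1 and 2.47 for Mybpc2. The C-protein genes moved the most, from lower with dox at 48 h to higher at 120 h in every library. Between the adhesion lines, the log2 effect in iCdh23 differed from that in iMcam by -4.46 for Ttn, -4.09 for Neb, -3.91 for Myom1, -3.75 for Myom2, -3.54 for Myom3, -4.19 for Mybpc1 and -4.27 for Mybph.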

How the results depend on the processing

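Of 254 counts of members, 226 equalled the main count or lay within 1.5-fold of it. Of 1735 single values, 1611 were unchanged, which for fold changes means the same direction and side of the threshold. For levels per kb at 120 h without dox it means a shift under the SD. With the longest transcript as the length, 4 of these levels shifted by less than the SD and 4 did not. The count of members called became 0 for dox at 0 h under DESeq2 and in 1 fit of all 47 libraries, 2 for dox at 24 h under DESeq2 and with no filter, 5 (dox at 48 h), 1 (dox at 120 h) and 2 (between fractions with dox) in the fit of all 47 libraries, 1 for dox in the myoblast-enriched fraction with no filter, and 8 (DESeq2), 6 (no filter) and 8 (replicate block) between fractions without dox. With the replicate block 3 members were called for dox in the myoblast-enriched fraction, and the direction turned for Mybpc1 (-1.22) and Mybpc2 (-1.33) under dox in the myotube-enriched fraction and for Myom3 (0.03) in the difference of dox effects between fractions. Leaving out 1 library gave 0 to 0 members for dox at 0 h, 0 to 1 for dox in the myoblast-enriched fraction, 4 to 8 for iMcam, 0 to 5 between fractions without dox and 4 to 7 for iCdh23 against iMcam. Ranges that crossed 0 when a library was left out were, for dox at 24 h, -0.10 to 0.46 (Neb) and -0.13 to 0.53 (Mybph), for dox in the myoblast-enriched fraction -0.48 to 0.23 (Myom3), for dox in the myotube-enriched fraction -0.97 to 0.32 (Ttn), -1.85 to 0.05 (Neb), -1.64 to 0.12 (Myom2), -2.64 to 0.75 (Mybpc1), -2.93 to 0.75 (Mybpc2) and -1.02 to 0.20 (Mybph), for 0 to 24 h with dox -0.03 to 0.31 (Neb), between fractions with dox -0.16 to 3.29 (Mybpc1), for the difference of dox effects between fractions -0.09 to 1.24 (Ttn), -1.10 to 0.83 (Neb), -0.73 to 0.56 (Myom1), -0.80 to 0.98 (Myom2), -1.01 to 0.10 (Myom3), -2.33 to 1.08 (Mybpc1), -1.81 to 1.97 (Mybpc2) and -0.54 to 0.72 (Mybph), and for iCdh23 against iMcam -1.45 to 2.31 (Mybpc2). The cause was not tested. Scaling by library totals alone moved the all-gene median by up to 0.328 (iCdh23) and turned no member count by over 1.5-fold, and for dox at 48 h it changed the split of calls from 823 higher and 1174 lower to 1092 and 970.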
